A study of Mus musculus with 5 samples.

Results

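The genes of glycolysis and of the steps around it were examined as 1 set of 35 genes in RNA-Seq libraries from sorted neonatal mouse lung fibroblasts. The set was chosen by gene symbol and covers glucose transport (3 genes), the enzymes of upper glycolysis (9) and of lower glycolysis with the 2,3-bisphosphoglycerate branch (7), the PFKFB regulators (3), lactate production and transport (4), the pyruvate dehydrogenase step (6) and the pentose phosphate enzymes (3). All 35 were among the 23478 genes of the count table, and all 35 were among the 15298 genes with enough counts to be tested.

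Glycolysis splits glucose into pyruvate in the cytosol, and pyruvate is then either reduced to lactate and exported or oxidised in mitochondria by the pyruvate dehydrogenase complex. Pyruvate dehydrogenase kinases (PDK) phosphorylate the complex and switch it off, and insulin and IGF signalling is known to act on glucose transport and on PDK4 through AKT and FOXO proteins. The postnatal lung fibroblasts studied here include the contractile alveolar myofibroblasts, which deposit elastin while alveoli form.

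All mice carried the Gli1-CreERT2 driver, in which a tamoxifen-activated Cre recombinase is expressed from the locus of the hedgehog target gene Gli1, and a Rosa26-eGFP reporter that marks recombined cells. Every pup received 100 µg tamoxifen on postnatal day (P) 0 and again on P1, and GFP-positive lung cells were sorted on P6. Controls (2 libraries) were Igf1r Flox/Wildtype and so carried 1 floxed allele as well, while Igf1r-deleted mice (3 libraries) carried 2 floxed alleles. The driver also recombines in lipofibroblasts and some smooth muscle cells, so that the sorted cells are a mixture, and the number and sex of the pups behind a library are not given in the sources used here. P-values therefore describe the spread between these libraries only, and in bulk RNA fewer cells of a type and less RNA per cell cannot be told apart.

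The libraries held 35116766 to 37597857 counts, and the 35 genes took 0.133% to 0.146% of them (46713 to 52906 counts). Igf1r itself was counted at 324 and 324 CPM (counts scaled to a common library total by TMM) in the controls and at 140, 177 and 194 in the Igf1r-deleted libraries, where gene-level counts also take in exons outside any deleted stretch. The libraries also differed in ways that the genotype does not name. Xist, the RNA of the inactive X chromosome, was at 4.09 and 0.628 CPM in the controls and at 170, 0.302 and 435 CPM in the deleted libraries, while 4 Y-linked genes summed to 164 and 162 CPM against 0.312, 132 and 0.0557 CPM. Deleted libraries 1 and 3 thus differ from the other three in sex-linked RNA.

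Most of the 35 genes had similar levels in both genotypes. The largest difference was in Pdk4, which was lower in the Igf1r-deleted cells. Slc2a4, Hk1 and Bpgm were higher in every deleted library. Changes as large as theirs, in either direction and with the gene itself counted, were found for 791, 4347 and 3436 of all tested genes. No member passed an adjusted p of 0.05 in the quasi-likelihood test of edgeR, adjusted by Benjamini-Hochberg (0 of 35, beside 0% of all tested genes), the lowest adjusted p being 0.354. At an unadjusted p under 0.05, 2 members were lower (Pdk4 and Gpi1) and 3 were higher (Slc2a4, Hk1 and Bpgm), which is 5.71% and 8.57% of the set beside 6.75% and 5.65% of all tested genes. DESeq2 called 1 member, Pdk4 (2.86% of the set), beside 1.30% of the genes tested (199). It gave no adjusted p for 2966 of the genes tested, Aldoc among them. A criterion of size was met by Pdk4 and Slc2a4 (5.71%, beside 5.83% of all tested genes), namely a log2 fold change of 0.5 or more in either direction, an unadjusted p under 0.05 and a level above 1 CPM in 50% or more of one genotype's libraries. The shares of the members called were thus close to those of the whole table.

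The genotypes did not overlap, with every deleted library below or above both controls, for 6 members in the lower direction (17.1%, beside 14.9% of all tested genes) and for 3 in the higher direction (8.57%, beside 16.0%). The 6 were Gpi1, Aldoc, Ldha, Slc16a1, Pdk2 and Pdk4, and the 3 were Slc2a4, Hk1 and Bpgm. In all, 19 members had a negative and 16 a positive log2 fold change, with a median of -0.01 beside 0.01 for all tested genes. With library totals in place of TMM scaling 14 were negative and 21 positive, since that scaling moved the median of all tested genes to 0.09 and that of the members to 0.06. The members' differences were mostly small. Their median absolute log2 fold change was 0.15, beside 0.19 for all tested genes, and 30 of 35 (85.7%) lay within 0.3 of no change, beside 66.7% of all tested genes.

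**Figure D1:**
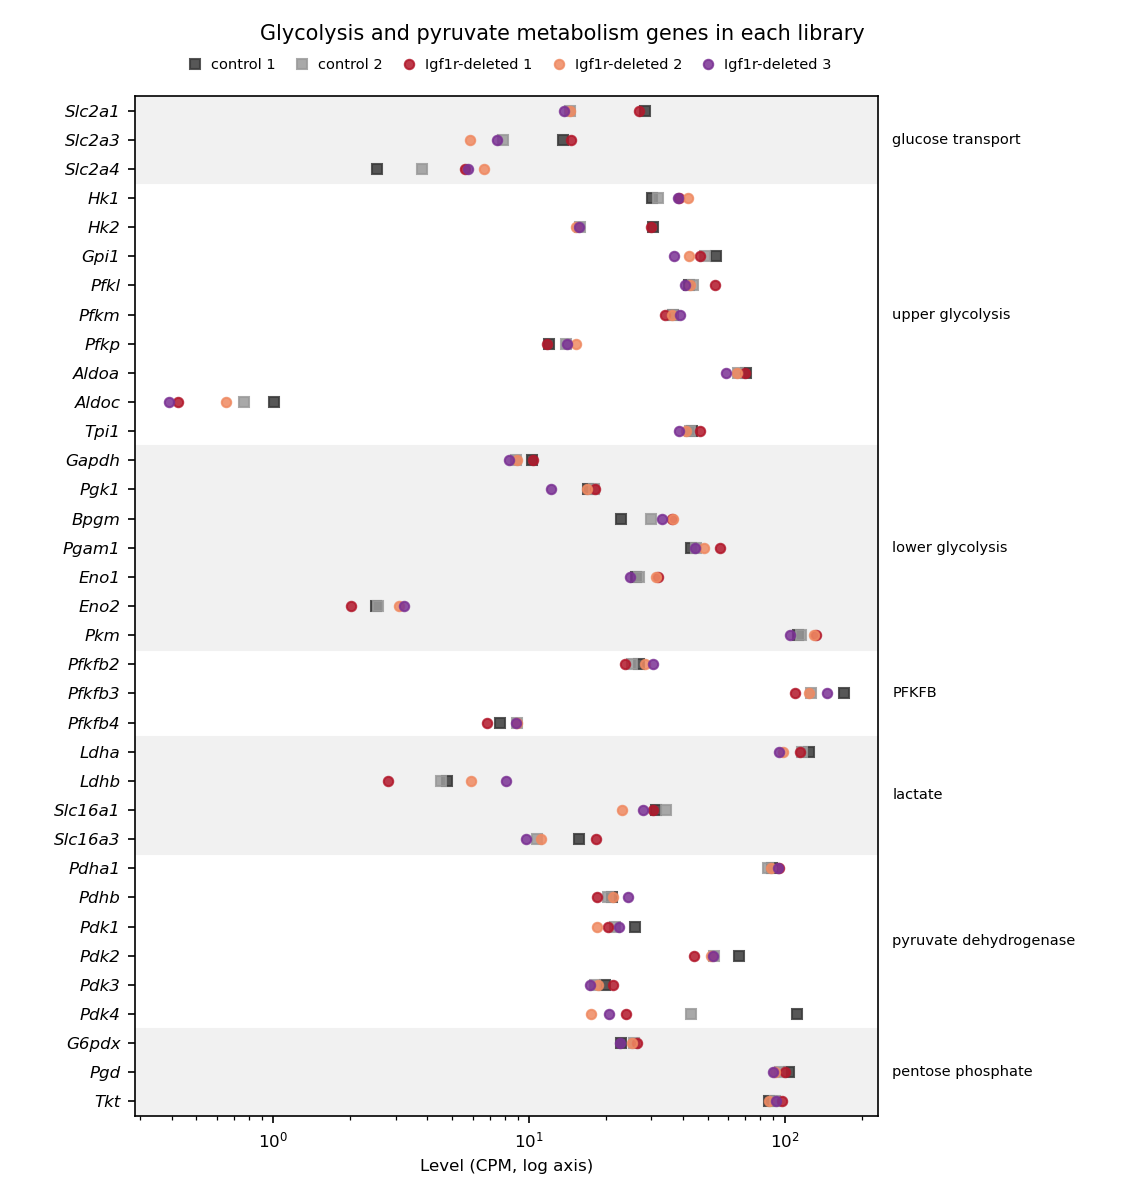
Level of each of the 35 genes in each library, in CPM on a log axis, with genes ordered by role. Squares are the 2 control libraries and circles the 3 Igf1r-deleted libraries. Pdk4 spans 17.5 to 111 CPM with both controls on the right, while Slc2a4, Hk1 and Bpgm have both controls on the left and most other genes show the 5 libraries close together.

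**Figure D2:**
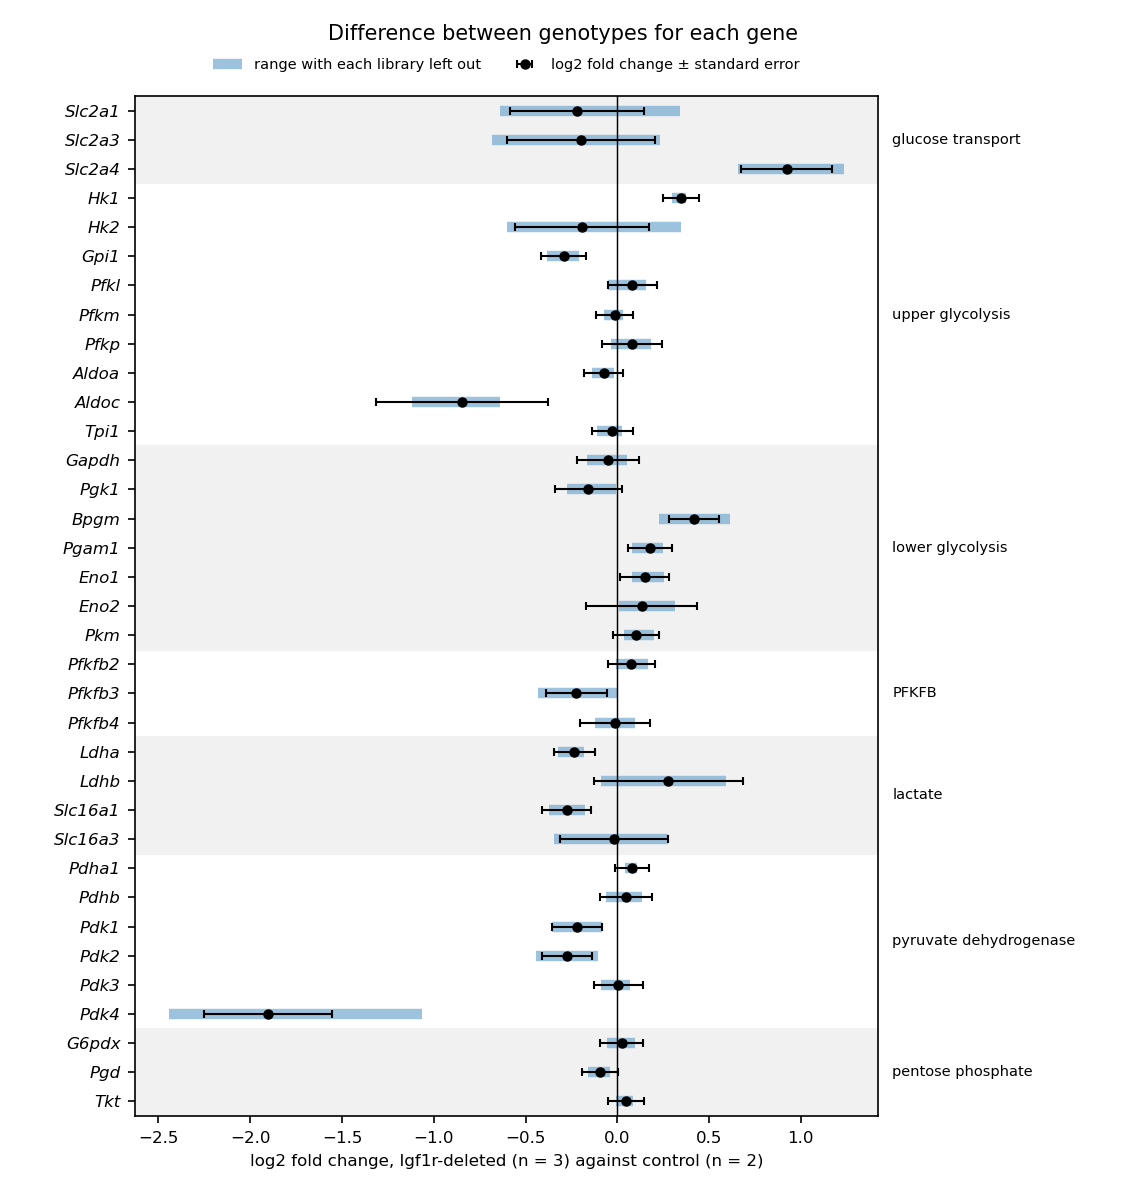
Log2 fold change of each gene, Igf1r-deleted against control, with its standard error (black) and the range of the value when each of the 5 libraries was left out in turn (blue). Pdk4 lies at -1.90 and stays below -1 in every leave-out, whereas Slc2a1, Slc2a3 and Hk2 cross 0.

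The promoters of 4 members are shown because they include the genes with the largest difference (Pdk4), those higher with no overlap for which a promoter was at hand (Hk1 and Bpgm) and the member with the highest level per exon length (Ldha). The sequences are RefSeq sequences of build GRCm38.p6, read 5′ to 3′ on the gene's strand and ending before the RefSeq start: Pdk4 at chr6:5496310-5496528 (minus strand), Hk1 at chr10:62379909-62380158 (minus strand), Bpgm at chr6:34476106-34476206 (plus strand) and Ldha at chr7:46845554-46845803 (plus strand). GENCODE M21 starts Ldha further upstream, at chr7:46841475, so that its window lies within the gene as annotated there. Where GENCODE M21 places an exon inside the window (31 bases for Pdk4 and 149 for Bpgm), those bases were left out. Capitals mark the core of the hypoxia response element (ACGTG or GCGTG) or the E-box (CACGTG), on either strand, the E-box holding the hypoxia core on both strands.
Pdk4: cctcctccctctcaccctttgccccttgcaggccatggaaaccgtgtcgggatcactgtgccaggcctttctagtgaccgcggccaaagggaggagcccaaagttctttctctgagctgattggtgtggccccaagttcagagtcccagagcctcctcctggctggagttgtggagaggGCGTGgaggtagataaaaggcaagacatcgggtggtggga
Hk1: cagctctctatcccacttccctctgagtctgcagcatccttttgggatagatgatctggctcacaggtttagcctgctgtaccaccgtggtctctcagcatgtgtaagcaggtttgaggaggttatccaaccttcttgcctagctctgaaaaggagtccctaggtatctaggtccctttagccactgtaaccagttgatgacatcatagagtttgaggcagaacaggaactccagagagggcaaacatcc
Bpgm: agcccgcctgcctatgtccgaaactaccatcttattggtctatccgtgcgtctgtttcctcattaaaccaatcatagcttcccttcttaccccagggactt
Ldha: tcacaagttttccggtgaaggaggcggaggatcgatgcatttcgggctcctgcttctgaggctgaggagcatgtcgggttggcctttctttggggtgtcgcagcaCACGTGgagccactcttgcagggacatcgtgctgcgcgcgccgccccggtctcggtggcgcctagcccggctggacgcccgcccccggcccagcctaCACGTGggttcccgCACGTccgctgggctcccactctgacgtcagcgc
The Pdk4 promoter holds 1 hypoxia core, which begins 71 bases before the RefSeq start, and those of Hk1 and Bpgm hold none of the motifs searched. Ldha has E-boxes that begin 145 and 48 bases before its start and a further hypoxia core at 34 bases.

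RefSeq promoters were at hand for 33 of the 35 genes, not for Slc2a3 and Slc2a4. Over the 250 bases before the start, 26 of the 33 (78.8%) held a hypoxia core on either strand, beside 38.6% of 27025 mouse promoters and 54.5% of the 11269 promoters of tested genes. The E-box was found in 5 (Ldha, Pdk2, Pfkfb2, Pfkm and Slc16a1), which is 15.2%, beside 6.05% of all promoters and 7.99% of those of tested genes. A FOXO site (GTAAACA) was found in 0 of 33 member promoters and in 3.09% of all promoters, and the glucocorticoid receptor palindrome, in 0 of 33 and in 0.381%. These are matches of letters in a short window and describe no binding.

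Glucose enters the cell through facilitative transporters. Slc2a1 encodes GLUT1, the transporter of basal uptake, Slc2a3 the high-affinity GLUT3 and Slc2a4 the insulin-responsive GLUT4. Slc2a4 was counted at 2.53 and 3.79 CPM in the controls and at 5.61, 6.64 and 5.76 CPM after deletion. Every deleted library was above both controls, at a low level in both genotypes. The log2 fold change was 0.92 ± 0.25 (SE, n = 2 and 3; unadjusted p = 0.007, adjusted p = 0.354, quasi-likelihood test of edgeR, Benjamini-Hochberg adjusted). Without control 1 it was 0.66 with an unadjusted p of 0.0539, and DESeq2 gave an adjusted p of 0.0588. Per exon length, Slc2a4 made up 6.84% and 17.4% of the summed CPM per kb of the 3 transporters in the controls and 14.3%, 27.9% and 25.2% in the deleted libraries, so that these shares overlapped.

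Slc2a1 was counted at 28.3 and 14.4 CPM in the controls and at 26.8, 14.4 and 13.7 CPM in the deleted libraries. It was high in control 1 and deleted 1 and near 14 CPM in the other three, and the genotypes overlapped (log2 fold change -0.22 ± 0.37, adjusted p = 0.816). The direction changed to 0.34 without control 1. Slc2a3 had the same pattern, with 13.5 and 7.89 CPM against 14.6, 5.88 and 7.49 CPM.

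Upper glycolysis spends ATP to turn glucose into triose phosphates. The first enzyme is hexokinase, with the housekeeping form Hk1 and the inducible form Hk2. Hk1 was counted at 30.2 and 31.9 CPM in the controls and at 38.5, 41.8 and 38.04 CPM after deletion. The 3 deleted libraries were all above both controls, and the libraries of each genotype lay close together. The log2 fold change was 0.35 ± 0.10 (unadjusted p = 0.00938, adjusted p = 0.354, edgeR), and without control 1 it was 0.30 with an unadjusted p of 0.0682. Of its exon length 1.84% overlaps the opposite-strand gene Hk1os, and whether the counting used strand is not given in the sources used here.

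Hk2 was counted at 30.5 and 15.9 CPM in the controls and at 29.9, 15.2 and 15.7 CPM in the deleted libraries. As for Slc2a1, control 1 and deleted 1 were about equal and high and the other three about equal and low (log2 fold change -0.19 ± 0.36, adjusted p = 0.838). Without control 1 the value was 0.35. The log2 ratio of Hk1 to Hk2 within a library was -0.01 and 1.01 in the controls and 0.37, 1.46 and 1.28 in the deleted libraries, and the genotypes overlapped (exact permutation test, two-sided, p = 0.5).

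Gpi1, which interconverts glucose and fructose phosphates, was counted at 53.6 and 48.8 CPM in the controls and at 46.6, 42.1 and 36.7 CPM in the deleted libraries. The genotypes did not overlap, with a small gap between control 2 and deleted 1. Its log2 fold change was -0.29 ± 0.12 (unadjusted p = 0.0492, adjusted p = 0.401, edgeR). The unadjusted p was above 0.05 with library totals (0.107), upper-quartile factors (0.0589), the replicate number as a term (0.104) or Xist as a covariate (0.153), and without control 1 (0.207), control 2 (0.059), deleted 2 (0.0956) or deleted 3 (0.14). Gpi1 shares 21.6% of its 31-base sequences with other genes, and 11.5% of its exon length overlaps the gene Gm26762.

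Phosphofructokinase, the committed step of glycolysis, is a tetramer of liver (Pfkl), muscle (Pfkm) and platelet (Pfkp) subunits. Pfkp was counted at 11.95 and 13.97 CPM in the controls and at 11.7, 15.3 and 14.1 CPM in the deleted libraries (log2 fold change 0.08 ± 0.16, adjusted p = 0.854), with no separation of the genotypes. Per kb of all annotated exons merged, Pfkm held 60.4% and 59.1% of the family in the controls and 53.4%, 59.0% and 62.1% in the deleted libraries. These shares depend on the length used, as the merged exons span 6675 bases for Pfkl, 3340 for Pfkm and 13401 for Pfkp. In CPM, Pfkl was above Pfkm in every library (40.5 to 53.1 against 33.8 to 38.9 CPM). The log2 fold change was 0.08 for Pfkl and -0.01 for Pfkm. The sum of the 3 genes stayed between 18.2 and 18.9 CPM per kb in all 5 libraries.

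Aldolase and triose phosphate isomerase complete the upper part. Aldoa held 98.7% to 99.5% of the aldolase CPM per kb, and the brain form Aldoc was counted at only 35 and 28 reads in the controls and 15, 26 and 14 reads in the deleted libraries. Aldoc was lower in all 3 deleted libraries (log2 fold change -0.85 ± 0.47, unadjusted p = 0.112), from few counts. Aldoa (-0.07) and Tpi1 (-0.03) differed little.

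The PFKFB enzymes make and remove fructose 2,6-bisphosphate, an activator of phosphofructokinase, and Pfkfb3 is the form with the strongest kinase activity. Pfkfb3 was counted at 170 and 126 CPM in the controls and at 109, 124 and 146 CPM in the deleted libraries. Control 1 was highest, and deleted 3 lay above control 2. The log2 fold change was -0.22 ± 0.17 (adjusted p = 0.593, edgeR), and it was 0.00 without control 1 and -0.43 without control 2. Pfkfb3 made up 74.1% to 81.0% of the PFKFB CPM per kb across the libraries, and Pfkfb2 (0.08) and Pfkfb4 (-0.01) had small log2 fold changes. The ratio of Pfkfb3 to Pfkfb2 was 6.34 and 4.98 in the controls and 4.61, 4.39 and 4.81 in the deleted libraries, lower in each (exact permutation test, two-sided, p = 0.1, the smallest possible; Benjamini-Hochberg adjusted over 11 ratios, 0.367).

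Lower glycolysis turns triose phosphates into pyruvate and yields ATP. Bpgm, which makes 2,3-bisphosphoglycerate and is best known from red cells, was counted at 22.8 and 29.9 CPM in the controls and at 36.0, 36.4 and 33.1 CPM in the Igf1r-deleted libraries. All 3 deleted libraries were above both controls, and control 1 was the lowest. The log2 fold change was 0.42 ± 0.14 (unadjusted p = 0.0177, adjusted p = 0.354, edgeR). It was 0.23 without control 1 (unadjusted p = 0.144) and 0.38 without deleted 2 (unadjusted p = 0.0554).

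Of 12 red-cell genes, 5 could be tested, and none had an unadjusted p under 0.05. Their summed level was 4.44 and 3.85 CPM in the controls and 2.56 to 7.23 CPM in the deleted libraries. The red-cell enzyme Alas2 was at 1.76 and 1.01 CPM in the controls and at 2.98, 1.64 and 0.612 CPM in the deleted libraries, and Epor, the erythropoietin receptor, at 1.18 and 1.69 CPM against 1.84, 2.62 and 1.61 CPM. Deleted 1 was highest for Alas2, while for Epor, as for Bpgm, deleted 2 was highest and control 1 lowest. Of the 5 tested genes, Alas2 and Epor were the 2 with a positive log2 fold change. The other 3 had a negative one, and the median of the 5 was -0.08. The part of red cells in the level of Bpgm was not tested. The haemoglobin genes Hba-a2, Hbb-bs and Hbb-bt are listed at 0 in all 5 libraries, but they have near-identical copies and their counts are uncertain.

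Pkm, the pyruvate kinase of most tissues, was counted at 113 and 116 CPM in the controls and at 133, 130 and 105 CPM in the deleted libraries. The deleted libraries lay on both sides of the controls (log2 fold change 0.10 ± 0.12, adjusted p = 0.75). Pgam1 (0.18), Eno1 (0.15) and Eno2 (0.13) had positive and Pgk1 (-0.16) a negative log2 fold change, with unadjusted p-values from 0.177 to 0.672 and overlapping genotypes. Eno1 held 87.1% to 93.3% of the enolase CPM per kb, and the neuronal form Eno2 the rest.

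Gapdh, a common reference gene of very high abundance in most cells, was counted at 10.3 and 8.84 CPM in the controls and at 10.4, 8.95 and 8.32 CPM in the deleted libraries. The genotypes overlapped fully (log2 fold change -0.05 ± 0.17, adjusted p = 0.913), and the whole gene held 299 to 366 reads a library. Per exon length its mean level was 2.26 CPM per kb, below the levels of Gpi1, Tpi1, Pgk1, Pgam1 and Pkm (7.06 to 23.8 CPM per kb) and at the 38.3rd percentile of tested genes, with 8955 tested genes above it. The stretch of the Gapdh coding sequence below, coding bases 415 to 445 in GENCODE M21, is shown because the same 31 bases occur in the exons of 131 other genes, 124 of them pseudogenes, so that a read from it has many possible places.
Gapdh: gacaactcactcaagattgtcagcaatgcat
Of all 31-base sequences of Gapdh exons, 28.1% are found in another gene, and 194 genes, 185 of them pseudogenes, share at least 50 such sequences with it. The table lists 8 of these Gapdh copies, and together they hold 4320 counts over the 5 libraries beside 1701 for Gapdh itself. The copy Gm12070 alone was counted at 643 and 637 in the controls and at 649, 689 and 559 in the deleted libraries, above Gapdh in every library.

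Other members share sequence with pseudogenes as well, 12 in all. The shares of 31-base sequences found elsewhere were 54.7% for Pgk1, 37.1% for Pgam1, 34.7% for Pkm, 33.0% for Ldhb and 28.5% for Eno1, and how reads with more than 1 place were counted is not given in the sources used here. Levels of these genes are therefore uncertain. Overlapping genes add to this for Pfkfb2 (19.5% of its exon length, Yod1 and Gm29427), Pdha1 (16.2%, Map3k15), Pkm (15.3%, Gm49759) and Pfkm (10.8%, Gm26513 and Senp1). Pdha1 has a copy in the table, 4930519F09Rik, with 7517 counts beside 16416 for Pdha1. The log2 fold changes of the 12 ran from -0.29 to 0.28. Reads were 150 bases long, and the share of 150-base windows that lie within 1 exon was 47.1% for the median member, from 16.7% (Pfkm) to 86.2% (Slc16a1), beside 65.3% for the median tested gene. The effect of splicing on the counts was not tested.

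**Figure D3:**
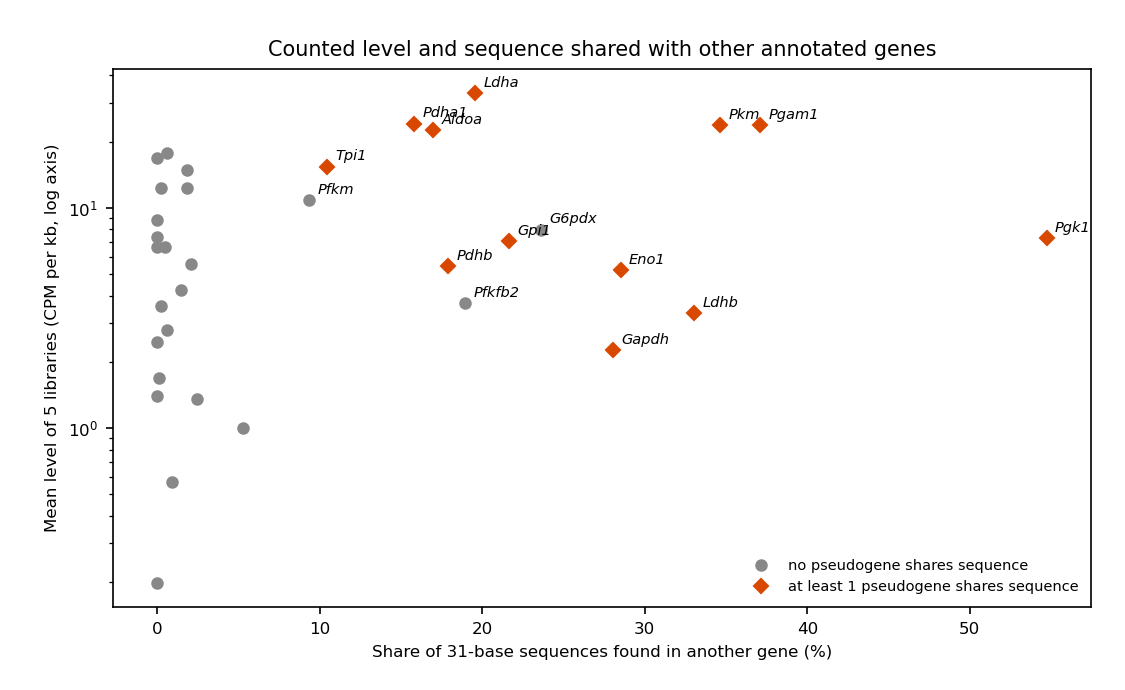
Mean level of each gene over the 5 libraries, in CPM per kb of exon on a log axis, against the share of its 31-base exon sequences that occur in another annotated gene. Diamonds are the 12 genes that share sequence with at least 1 pseudogene. Ldha is the highest at 33.1 CPM per kb, Gapdh lies at 2.26 CPM per kb with 28.1% shared and Pgk1 is farthest right at 54.7%.

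Lactate dehydrogenase interconverts pyruvate and lactate, with Ldha encoding the muscle-type and Ldhb the heart-type subunit. Ldha had the highest level per exon length of the 35 genes, 33.1 CPM per kb, and 1210 tested genes were higher. It was counted at 124 and 117 CPM in the controls and at 114, 98.4 and 94.6 CPM in the deleted libraries. Each deleted library was below both controls, with a log2 fold change of -0.23 ± 0.11 (unadjusted p = 0.0734, adjusted p = 0.433, edgeR). Without deleted 1 its unadjusted p was 0.0136, in a fit where 21.03% of all tested genes had one under 0.05. Without deleted 2 and without deleted 3 it was 0.167 and 0.196. Ldhb ranged from 2.81 CPM in deleted 1 to 8.13 CPM in deleted 3, with both controls between (4.75 and 4.53 CPM). Its log2 fold change of 0.28 was -0.09 when deleted 3 was left out (unadjusted p = 0.824, edgeR). It was 0.59 when deleted 1 was left out (unadjusted p = 0.0391, edgeR, beside the same 21.03%).

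The monocarboxylate transporters Slc16a1 (MCT1) and Slc16a3 (MCT4) carry lactate across the membrane. Slc16a1 was counted at 31.4 and 34.3 CPM in the controls and at 30.4, 23.1 and 27.8 CPM in the deleted libraries, lower in each, though deleted 1 lay close to control 1. Its log2 fold change was -0.28 ± 0.14 (unadjusted p = 0.079, edgeR). The unadjusted p was 0.0217 without deleted 1, where 21.03% of all tested genes had one under 0.05. It was 0.0323 with Xist as a covariate (beside 10.13%), 0.215 without deleted 2 and 0.113 without deleted 3. Slc16a3 was counted at 15.7 and 10.7 CPM in the controls and at 18.2, 11.1 and 9.74 CPM in the deleted libraries (log2 fold change -0.02 ± 0.29, adjusted p = 0.984). It was again high in control 1 and deleted 1.

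Slc2a1, Slc2a3, Hk2 and Slc16a3 thus had their higher values in the same pair of libraries, across the genotypes, and replicate numbers are not said to mark a batch. In all, 9 of the 35 members (25.7%, beside 12.5% of all tested genes) had control 1 and deleted 1 above the remaining libraries. The rest of the 9 were Aldoa, Tpi1, Gapdh, Pdk3 and Pgd. Of 18 hematopoietic markers 11 also had both of these libraries above the other three (beside 12.5% of all tested genes), and 7 did not. Among the 11, S100a8, a granulocyte gene, was at 62.9 and 18.1 CPM in the controls and at 34.6, 7.75 and 5.51 CPM in the deleted libraries, and Itgam, an integrin of myeloid cells, at 12.6 and 4.72 CPM against 13.0, 5.53 and 4.54 CPM. Among the 7 were the B cell gene Cd79a, at 10.2 and 11.2 CPM against 5.81, 1.86 and 2.53 CPM, Cd68, at 10.8 and 8.49 CPM against 6.72, 4.45 and 5.18 CPM, and C1qb, at 12.5 and 8.05 CPM against 6.23, 6.69 and 4.29 CPM, for which both controls were above all deleted libraries. Of the 18 markers, 17 had a negative log2 fold change and 4 of these an unadjusted p under 0.05, beside 6.75% of all tested genes lower at this p. None was at 0 throughout, and their summed level was 646 to 967 CPM in the controls and 341 to 712 CPM in the deleted libraries. The part of blood cells in the levels of these 9 members was not tested.

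**Figure D4:**
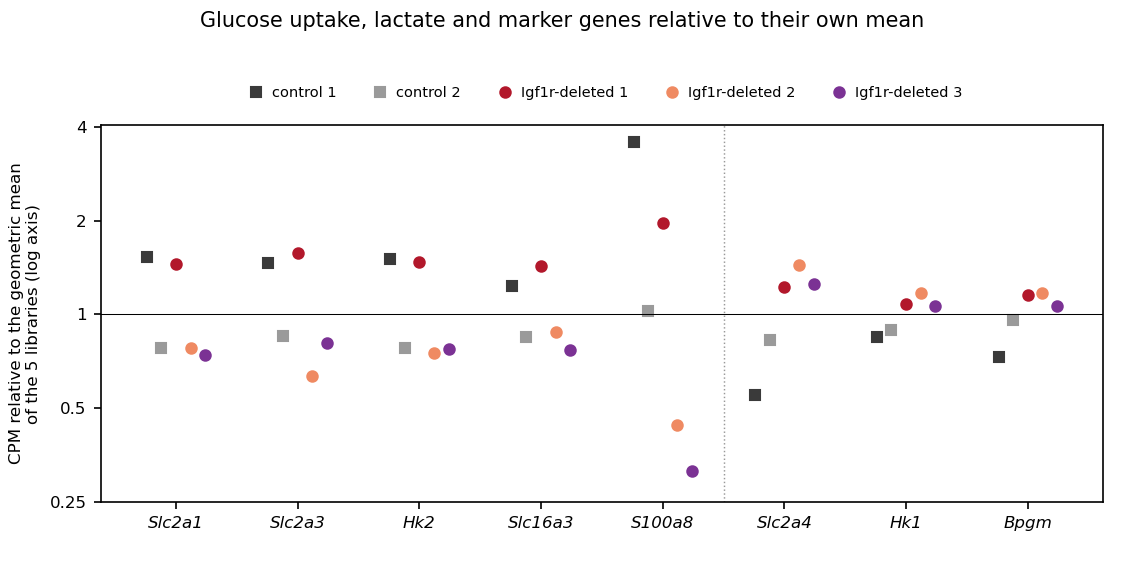
CPM of 8 genes in each library, relative to the geometric mean of the 5 libraries, on a log axis. Left of the dotted line Slc2a1, Slc2a3, Hk2, Slc16a3 and the granulocyte gene S100a8 have control 1 (dark square) and Igf1r-deleted 1 (red circle) on top, and right of it Slc2a4, Hk1 and Bpgm have both controls (squares) lowest.

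At the pyruvate dehydrogenase step the inhibitory kinases are Pdk1 to Pdk4, and Pdk4 is the form induced in fasting and by glucocorticoids. Pdk4 had the largest difference of the 35 genes. It was counted at 111 and 43.0 CPM in the controls and at 23.8, 17.5 and 20.6 CPM in the Igf1r-deleted libraries. All 3 deleted libraries lay close together and below both controls, while the controls differed from each other by 2.59-fold. The log2 fold change was -1.90 ± 0.35 (unadjusted p = 0.000862, adjusted p = 0.354, edgeR), a 3.74-fold lower level. Of the 15298 tested genes, 91, Pdk4 included, had a change as large in either direction.

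The difference in Pdk4 depended on control 1 for its size but not for its direction. Without control 1 the log2 fold change was -1.07 (unadjusted p = 0.000758, adjusted p = 0.9996) and without control 2 it was -2.44 (unadjusted p = 3.28e-06, adjusted p = 0.0137). The unadjusted p was under 0.05 in each of the 5 leave-outs. DESeq2 gave an adjusted p of 3.74e-05. EdgeR with the replicate number as a term gave one of 0.00785, but that number is not said to mark a batch. That fit left 1 residual degree of freedom. With the other scalings and filters, robust fitting, limma voom or Xist as a covariate, the adjusted p ran from 0.243 to 0.474.

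The other kinases differed less. Pdk2 was counted at 66.3 and 52.7 CPM in the controls and at 44.0, 51.4 and 52.2 CPM in the deleted libraries. It was lower in each by a margin that was small against control 2. Its log2 fold change was -0.27 ± 0.13 (unadjusted p = 0.0792, edgeR), and it was -0.10 without control 1 and -0.44 without control 2. Pdk1 (-0.22) and Pdk3 (0.00) had overlapping genotypes. Per exon length, the 4 kinases summed to 63.8 and 38.7 CPM per kb in the controls and to 31.6, 30.9 and 32.0 CPM per kb in the deleted libraries. Pdk4 made up 49.7% and 31.6% of that sum in the controls and 21.5%, 16.1% and 18.3% in the deleted libraries, and Pdk2 held the largest share in all but control 1.

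Within a library the ratio of Pdk4 to Pdk1 was 4.29 and 1.995 in the controls and 1.17, 0.95 and 0.917 in the deleted libraries, and that of Pdk4 to Pdk2 was 1.68 and 0.815 against 0.542, 0.34 and 0.394. Both ratios were lower in every deleted library (exact permutation test, two-sided, p = 0.1 for each, the smallest that 2 against 3 libraries can give; Benjamini-Hochberg adjusted over 11 ratios, 0.367). Of the 11 ratios between isozymes, 3 reached this p, these and that of Pfkfb3 to Pfkfb2. The genes of the enzyme itself, Pdha1 (0.08) and Pdhb (0.05), had small log2 fold changes, and Pdha1 was at 88.6 and 85.5 CPM in the controls and at 94.2, 88.0 and 94.1 CPM in the deleted libraries.

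**Figure D5:**
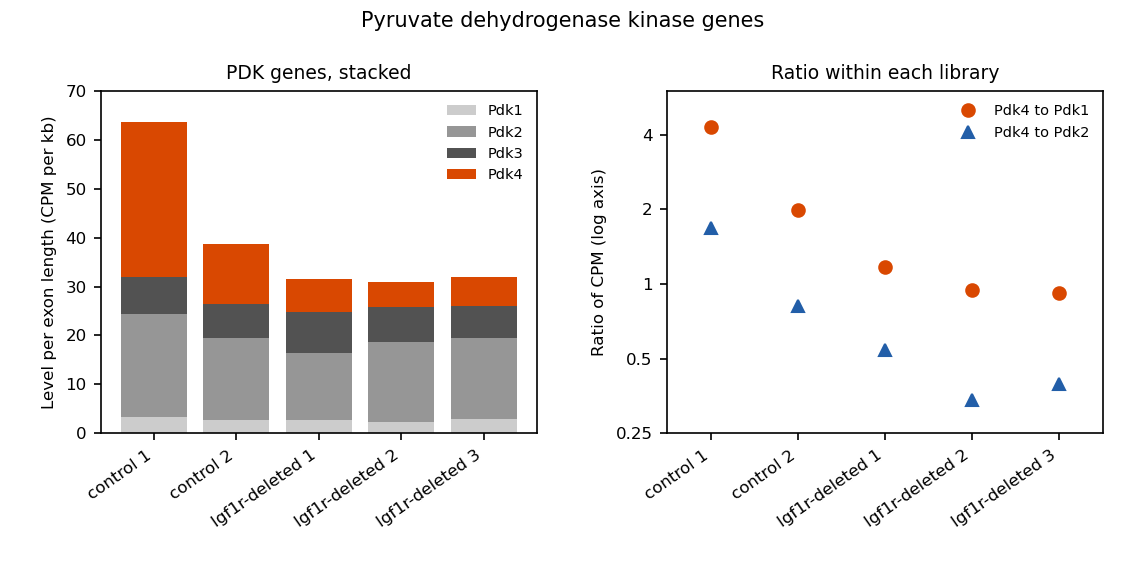
Left, level of the 4 PDK genes in each library, in CPM per kb of exon, stacked from 0. Right, ratio of the CPM of Pdk4 to that of Pdk1 (circles) and Pdk2 (triangles) within each library, on a log axis. The Pdk4 segment and both ratios are largest in control 1, next in control 2 and smaller in each deleted library.

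Pdk4 and Slc2a4 are also known from fat and striated muscle, and the markers of those tissues were examined beside them. Of 21 such markers, 15 could be tested and 1 had an unadjusted p under 0.05, Mb (0.144 and 0.218 CPM in the controls against 0.878, 0.981 and 0.863 CPM). Of the 15, 8 had a negative and 7 a positive log2 fold change, with a median of -0.21. Their summed level was 91.2 to 136 CPM in the controls and 93.4 to 125 CPM in the deleted libraries. The fat cell gene Adipoq was at or below 0.0567 CPM in every library, and the muscle gene Ckm was between 0.167 and 0.628 CPM. The heart gene Myl2 was at 0 in all libraries. Above both controls in every deleted library, as Slc2a4 was, were 3 of the 15 (beside 16.0% of all tested genes), and 0 were below both. Besides Mb these were the skeletal actin Acta1, at 22.5 and 36.0 CPM against 37.1, 51.2 and 37.8 CPM (unadjusted p = 0.0535), and the troponin Tnni3, at 0.346 and 0.3001 CPM against 0.793, 0.553 and 0.445 CPM. The cardiac actin Actc1 had a log2 fold change of -0.44 with overlapping genotypes. The part of such cells in the levels of Slc2a4 and Pdk4 was not tested.

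Glucose 6-phosphate enters the pentose phosphate pathway through G6pdx, the source of much cytosolic NADPH. G6pdx was counted at 22.9 and 25.7 CPM in the controls and at 26.3, 25.3 and 22.5 CPM in the deleted libraries, with no separation (log2 fold change 0.03 ± 0.12, adjusted p = 0.941). Of its exon length 13.6% overlaps Ikbkg. Pgd (-0.09) and Tkt (0.05), a dehydrogenase and the transketolase of the same pathway, also had overlapping genotypes. G6pdx, Pgk1, Pdha1 and Pdk3 lie on the X chromosome, and with Xist as a covariate their log2 fold changes were 0.08, -0.04, 0.03 and -0.01.

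Most genes of the same pathways outside the set had a negative log2 fold change, and few had an unadjusted p under 0.05. Of all 15298 tested genes, 7299 had a negative log2 fold change, and 6.75% were lower and 5.65% higher at this p. Among 18 other tested genes of glycolysis and sugar transport 15 had a negative log2 fold change (median -0.33). Some of these had few counts, such as Hkdc1 (-0.93, 6 to 14 reads a library) and Pfkfb1 (-0.75, 14 to 36 reads). The transporters Slc2a12 (-0.78) and Slc2a9 (-0.50) were lower and Slc2a10 (0.44) higher at an unadjusted p under 0.05. Of 17 tested genes of lactate and pyruvate metabolism, 1 was so called, Me1, the cytosolic malic enzyme, at 11.8 and 20.4 CPM in the controls against 23.7, 29.4 and 27.0 CPM. Of 9 tested genes of the pentose phosphate pathway, 1 was, H6pd, the enzyme of the endoplasmic reticulum, at 1572 and 1247 CPM against 1148, 924 and 954 CPM.

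Among 27 tested regulators of glycolysis, 7 were lower and 1 higher at an unadjusted p under 0.05 (beside 6.75% and 5.65% of all tested genes), and none had an adjusted p under 0.05. Txnip, which restrains glucose uptake and is induced by glucose and by FOXO proteins, was counted at 1322 and 707 CPM in the controls and at 441, 375 and 407 CPM in the Igf1r-deleted libraries. Every deleted library was below both controls, as for Pdk4 (log2 fold change -1.31 ± 0.24, unadjusted p = 0.000813, adjusted p = 0.354, edgeR). Its relative Arrdc4 was at 66.6 and 56.7 CPM against 37.7, 35.1 and 41.4 CPM (-0.69 ± 0.12). The transcription factors Myc (-0.92) and Foxo3 (-0.72) were also lower in all 3 deleted libraries, and Hif1a, which drives glycolytic genes in hypoxia, had a log2 fold change of 0.15 (unadjusted p = 0.219).

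Of 16 hypoxia-induced genes outside glycolysis, 4 were lower at an unadjusted p under 0.05 and 0 were higher, beside 6.75% and 5.65% of all tested genes. The genotypes did not overlap for the same 4, beside 14.9% of all tested genes that were lower without overlap. These were Ddit4 (-0.93), Bnip3 (-0.84), Bhlhe40 (-0.66) and Mxi1 (-0.53), and such genes can respond to other signals too. Mxi1 is also counted among the regulators above, and Ddit4 in the list of FOXO or glucocorticoid-induced genes below. The remaining 12 did not pass, among them Adm (log2 fold change 0.11) and Ndrg1 (-0.22).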

How the data were processed

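RNA from sorted cells was sequenced as 150-base paired reads. The deposited values are raw counts per gene, made by the authors from trimmed reads (the submitters' processing notes name Trim Galore, Bowtie2, Cufflinks, DESeq and mm10, and the study's methods name Bioconductor's genomic alignment package for the counting); the overlap rule, the treatment of reads with several places, the strand setting and annotation are not given in the sources used here. Columns were matched to samples by name, and 0 other columns held per-sample values.

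Genes kept by filterByExpr were fitted on the whole table with edgeR 4.0.16 (R 4.3.3; TMM, glmQLFit, glmQLFTest, genotype as the only term), p-values being adjusted by Benjamini-Hochberg. CPM used TMM-scaled totals. The size criterion follows the study's methods with CPM in place of FPKM. Isozyme ratios were compared by an exact two-sided permutation test, whose smallest p is 0.1. DESeq2 1.42.0, limma 3.58.1 and other scalings, filters and left-out libraries were alternatives.

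The 35 members and all gene lists were chosen with earlier results of these data known. Members were given per library where the genotypes did not overlap and the unadjusted p was under 0.05, or where they hold a rate-setting or entry step. Members with larger differences in 1 alternative were added after their values were seen. Of other lists, at most 4 genes each were named (largest change with an unadjusted p under 0.05 and no overlap), plus defining markers and Hif1a, Adm, Ndrg1, Hkdc1 and Pfkfb1. GENCODE M21, in which 14505 tested genes were found, gave exon lengths and the 31-base sequences shared between genes. An exon length is that of all annotated exons of a gene merged, not of the transcript in use. Levels and shares per exon length depend on that choice.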

Additional observations from a re-analysis of the deposited data

How the results depend on the processing

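With 2 and 3 libraries a single control carries much of each result. Members with an adjusted p under 0.05 numbered 0, and 1 (Pdk4) with DESeq2, 1 (Pdk4) with the replicate number as a block beside genotype (136 genes in all) and 0 to 1 when each library was left out (1 without control 2). The block left 1 residual degree of freedom. The correlation of same-numbered libraries' deviations was 0.29 and 0.18 for the 2 pairs the numbers make, and 0.16 for control 2 with deleted 3. With 2 controls their deviations mirror each other, so that these values cannot decide on a pairing. The numbers were not taken as a pairing because they are not said to mark one. Members with an unadjusted p under 0.05 numbered 5, 4 to 5 under the other scalings, filters, tests and the block, and 1 (without control 1) to 8 (without deleted 1) in the leave-outs, where 2.76% and 21.03% of all tested genes had one. Those meeting the size criterion numbered 2, and 1 to 3 in the leave-outs. Members whose genotypes did not overlap numbered 9 (25.7%, beside 30.96% of all tested genes), and 10 to 19 in the leave-outs (28.6% to 54.3%), where fewer libraries leave less chance of overlap and 39.9% to 62.4% of all tested genes had none. Their median log2 fold change ran from -0.09 to 0.05 in the leave-outs. The log2 difference in the ratio of Aldoa to Aldoc was 0.80, and 0.41 with 0.5 CPM added to each level. DESeq2 gave no adjusted p for 2966 genes of low mean count. Leaving out a control leaves 1, which is then assumed to vary like the deleted libraries. Aldoc (14 to 35 reads a library) and Eno2 (71 to 123) had the fewest counts of the set.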

Other observations

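Glycogen and the tricarboxylic acid cycle border on the pathways described. Of 23 tested glycogen genes, 3 were lower and 2 higher at an unadjusted p under 0.05 (beside 6.75% and 5.65% of all tested genes). Ppp1r3c, which targets protein phosphatase 1 to glycogen and favours its synthesis, was counted at 128 and 140 CPM in the controls and at 167, 180 and 207 CPM after deletion of Igf1r (log2 fold change 0.46 ± 0.12). Its relative Ppp1r3b had the opposite direction, at 11.5 and 7.31 CPM against 6.26, 4.55 and 6.15 CPM (-0.74 ± 0.25), as did Pgm2l1 (-0.44) and the branching enzyme Gbe1 (-0.39). Of 20 tested genes of the tricarboxylic acid cycle, 1 was so called, Idh3a (0.26), a subunit of isocitrate dehydrogenase.

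Pdk4 and Txnip belong to a list of 18 genes known to be induced by FOXO proteins or glucocorticoids, which was put together with results of these data known and so gives no independent support. All 18 had a negative log2 fold change, 16 with an unadjusted p under 0.05. At this p, 6.75% of all tested genes were lower and 5.65% higher, which is the share to set beside the lists below too. Zbtb16 was at 231 and 80.7 CPM in the controls and at 37.0, 6.14 and 5.04 CPM in the deleted libraries, Tsc22d3 at 649 and 222 CPM against 134, 97.1 and 100.3 CPM, and Klf15 at 67.1 and 21.4 CPM against 19.2, 13.6 and 14.4 CPM. For each of these, as for Pdk4, control 1 was highest. Of 19 immediate early and dissociation genes, all had a negative log2 fold change and 12 an unadjusted p under 0.05, among them Egr3 (-0.87) and the heat shock genes Hspa1a (-2.07) and Hspa1b (-1.98), which are near-identical copies. Of 21 myofibroblast genes, 7 were higher and 2 lower at an unadjusted p under 0.05, and Acta2 was at 407 and 655 CPM in the controls and at 764, 1067 and 907 CPM in the deleted libraries. Of 18 lipofibroblast and matrix fibroblast genes, 12 had a negative log2 fold change and 3 were lower and 0 higher at an unadjusted p under 0.05, among them Tcf21, at 1662 and 1168 CPM against 1003, 902 and 963 CPM. Of 18 epithelial markers, 16 had a negative log2 fold change and 2 were lower at an unadjusted p under 0.05. The part of these gene groups, and of the mixture of cells, in the level of Pdk4 was not tested.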
